A study of Vitis vinifera with 36 samples.

Results

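Ovules of Red Globe (RG), a seeded (SD) table grape, were compared with those of Thompson Seedless (TS), which is seedless (SL). The stage is the one that the study calls post-bloom (S2), and whether the ovules had been fertilised is not stated in the sources used here. The members were chosen by the labels alone: the 3 arrays titled RG S2 and the 3 titled TS S2, which are 6 of the 36 arrays of the series, and every probe of the deposited matrix that had a value on all arrays (22582 probes). Of these, 22203 were tested because some group among the 12 of variety and stage had them well above background in all its 3 arrays. Both groups are cultivars of Vitis vinifera grown in the field under conventional management without hormone treatment, and both were sampled at stage E-L 19 to 25 (BBCH 65 to 68) of the grapevine scales. The other arrays are of RG and TS at pre-bloom (S1), pea size (S3) and veraison (S4) and of the seeded variety Italia (IT) at all 4 stages. The IT arrays lie on slides and in scan sessions that hold no RG or TS array. Where IT is set beside RG and TS below, variety and slide or session cannot be told apart. Each class is represented here by 1 variety at a time, so a difference between RG and TS and a difference between seeded and seedless grapes cannot be told apart. The labels call the tissue seeds. The methods describe the dissection of pooled ovules from pre-bloom flowers only, and the number of vines behind a sample is not given in the sources used here.

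In a seeded grape the ovule is built by an inner and an outer integument around the embryo sac, and after fertilisation the integuments become the seed coat while endosperm and embryo grow inside. Thompson Seedless is a classic case of stenospermocarpy, in which fertilisation takes place and the young seed then stops growing, which leaves a soft seed trace. VviAGL11, a MADS-box transcription factor of the class that specifies ovules, is the gene best known for the trait.

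RNA was hybridised to a custom 1-colour Agilent grapevine array. Every value below is a scaled log2 signal, that is, the log2 of the processed intensity of a probe minus the 75th percentile of its array, so that 0 is the level of a probe at that percentile. A probe was called a DEG when limma, fitted to all 36 arrays, gave an adjusted p under 0.05 and a log2 difference RG minus TS over 1 in either direction. For 3 arrays against 3 an exact permutation test (two-sided, arrays not paired) gives p = 0.1 at best, which is the value for each gene whose arrays did not overlap. Signals of different probes are not set against each other, and in whole ovules fewer cells of a type and less RNA per cell cannot be told apart.

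Array 3 of both varieties stood apart from arrays 1 and 2. Over the probes tested, RG arrays 1 and 2 correlated at 0.983, and RG array 3 with them at 0.843 and 0.858. In TS the same values were 0.991 for arrays 1 and 2, and 0.867 and 0.871 for array 3. RG array 3 and TS array 3 correlated with each other at 0.946, more closely than either did with its own group. They shared 1 slide and 1 scan session. RG array 2 and TS array 2 also shared a slide and a session, both different from those of array 3, and correlated at 0.926. RG array 1 and TS array 1 shared another session but not a slide, and correlated at 0.924. The share of probes well above background was 87.1%, 80.1% and 96.1% on RG arrays 1 to 3, and 91.6%, 85.0% and 97.3% on TS arrays 1 to 3. For some genes the difference is also given without array 3 of both varieties. Of the 80 genes named below that were called, 75 kept the call without these 2 arrays.

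At S2, 430 probes were higher and 704 lower in RG than in TS, which is 1.94% and 3.17% of the probes tested, or 5.11% in either direction. The median log2 difference was 1.95 among the probes higher in RG and -2.41 among those lower, with extremes of 7.61 and -7.88, while the median of all probes was 0.08. RG and TS arrays did not overlap for 1067 of the 1134 called probes, or 94.1%, against 23.0% of all probes tested. The 3 pairs of arrays with the same number gave the same direction for 98.5% of the called probes, against 55.1% of all probes tested. The probes were called on these same arrays, so both shares follow in part from that choice and are no separate support. With the replicate number as a block, 480 probes were higher and 844 lower in RG over 36 arrays, and 301 were higher and 419 lower when only the 6 arrays of S2 were fitted. All 80 named genes that were called kept the call with the block over 36 arrays, and 46 kept it with the block over the 6 arrays, where the adjusted p of the other 34 was 0.0505 to 0.162. Among these 34 were LHCB2.1 (0.052), IAA7 (0.063), oomt1 VIT_12s0028g02800 (0.064), VviAGL11 (0.065), RPS4 (0.070), RD22 (0.083), AAP6 (0.100), VvOMT1 (0.105) and KNAT1 (0.112). The others described below were photosystem I subunit II, AGLU1, the dioxygenase VIT_09s0002g05350, the malate carrier, the other oomt1 gene and oomt2, the glucuronosyltransferase, the resistance genes VIT_11s0118g00160 and R protein PRF, KNAT2, the GH3-like gene, the beta-glucosidase, VvERF107, the kinesin gene, HDA6, CSLG3, the pectate lyase, VvTPS05, MTSHP, the MtN3 gene and GSVIVT01007585001. With scan session as a block over the RG and TS arrays 693 were higher and 1135 lower. Without array 3 of both varieties 483 were higher and 855 lower, of which 337 and 597 were the same probes as before. The split depended on the scaling. Without any scaling 60 probes were higher and 414 lower, and the median of all probes was -0.47.

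**Figure D1:**
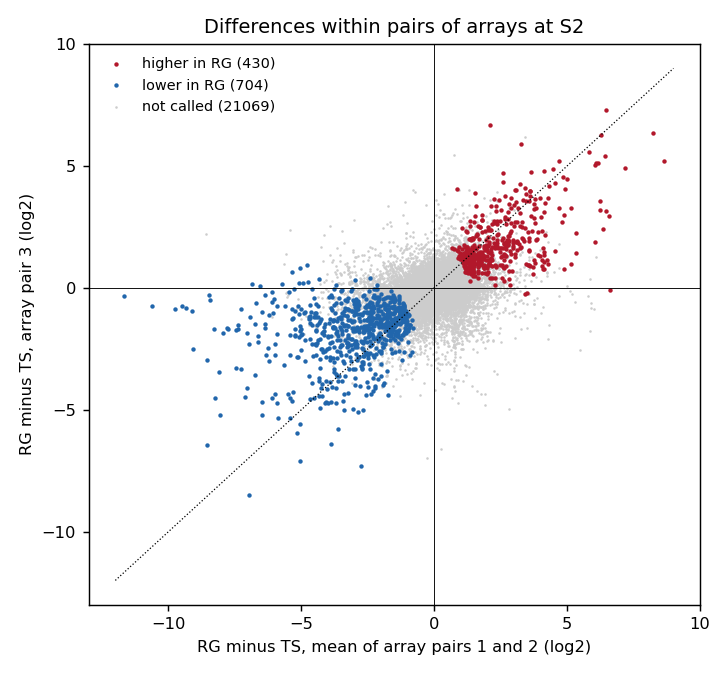
Differences between RG and TS at S2 for each probe, as log2 signal of RG minus TS, with the mean of array pairs 1 and 2 on the horizontal axis and array pair 3 on the vertical axis (red, 430 probes higher in RG; blue, 704 lower; grey, 21069 not called; dotted line, equal values). The called probes lie mostly in the same quadrant in both, and many of the largest differences of pairs 1 and 2 are nearer to 0 in pair 3. Over all probes tested the pair differences correlated at 0.843 between pairs 1 and 2, 0.477 between 1 and 3 and 0.452 between 2 and 3.

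Gene names come from the tables that accompany the study, which annotate 4381 of the tested probes and favour genes the study had called. Of these probes 5.41% were higher in RG, 5.71% lower and 11.1% called in either direction, so these shares, and not those of all probes, are the background for the gene lists below. At the other stages, whose calls are given beside those of S2, the annotated probes higher and lower in RG were 8.24% and 6.39% at S1 (14.6% together), 34.9% and 13.8% at S3 (48.7%) and 9.88% and 17.6% at S4 (27.5%). Without scaling, calls higher in RG stood in 3 lists only, 5 of disease resistance genes and 1 each of abscisic acid and of heat shock genes, and the medians of the MADS-box, ovule and gibberellin lists given below as positive were negative, at -0.12, -0.26 and -0.018. No probe sequence was in hand, so signals of close copies of a gene may be shared and their separate values are uncertain. For the same reason, sequence differences between the varieties under a probe could not be checked.

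The genes taken here as ovule markers were detected, but whether each is particular to ovules was not tested. VviAGL11, VviAG1 and inner no outer, a YABBY gene needed for the outer integument in Arabidopsis, were well above background on all arrays of both varieties, and VviMADSD2a on 2 of 3 arrays of each. Of 9 genes of pollen and stamens, all 9 were well above background on every array of both varieties, and their summed signal was 42.4 to 70.6 times the 75th percentile on the RG arrays and 35.6 to 57.7 times on the TS arrays, ranges that overlap. VviAP3b was the 1 member called. Photosynthesis genes, which mark green tissue such as the ovary wall, summed to 42.1 to 44.8 times the 75th percentile on the RG arrays, 66.3 to 76.2 on the IT arrays and 82.1 to 91.2 on the TS arrays, with no overlap between any of the varieties.

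Of the 32 photosynthesis genes 9 were lower in RG and 1 was higher, with a median difference of -0.77, and 1 was lower without scaling. LHCB2.1, a light-harvesting protein of photosystem II, had a scaled log2 signal of 2.00, 1.90 and 3.31 on the RG arrays, against 4.15, 4.06 and 4.56 on the TS arrays, and all RG arrays were below all TS arrays. Its difference was -1.85 (standard error 0.33, adjusted p = 0.00070 from limma). Photosystem I reaction center subunit II was lower by a similar amount, at 1.39, 1.64 and 1.22 in RG and 2.83, 2.88 and 3.22 in TS (difference -1.56, adjusted p = 0.00040). PSBP, the extrinsic protein of the oxygen-evolving complex, differed by -1.25 (adjusted p = 0.0021). The exception was PsbQ, another protein of that complex, with -0.49, -0.37 and -0.71 in RG against -1.90, -2.09 and -2.84 in TS (difference 1.76, adjusted p = 0.0027). Of the 32 genes 8 were lower and none higher in RG at S1, 2 lower and 4 higher at S3, and 11 lower and none higher at S4. Whether green tissue in the dissected samples has a part in the other differences was not tested.

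**Figure D2:**
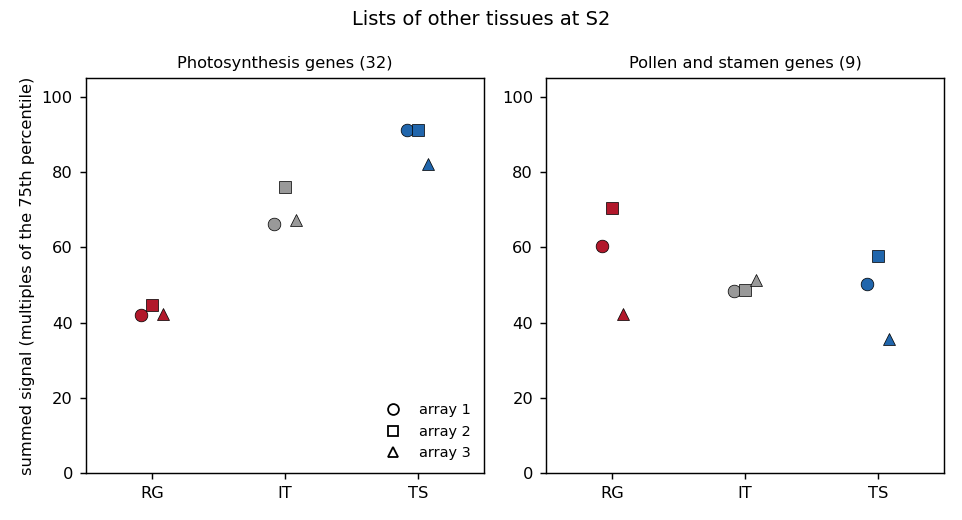
Summed signal of photosynthesis genes (left, 32 genes) and of pollen and stamen genes (right, 9 genes) at S2, in multiples of the array's 75th percentile, for each array of RG, IT and TS (1 point an array, with the array number as the marker shape). The RG arrays lie between 42.1 and 44.8 for photosynthesis genes and the TS arrays between 82.1 and 91.2, while the ranges of both varieties overlap for pollen and stamen genes.

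Among the named genes higher in RG, the one with the largest difference that was well above background on some array of both varieties was an embryo-abundant protein on chromosome 8 (VIT_08s0007g05570). It had a scaled log2 signal of -2.45, -2.90 and -1.37 on the RG arrays, against -9.75, -8.42 and -6.78 on the TS arrays. All RG arrays were thus far above all TS arrays, and the difference was 6.08 (standard error 0.52, adjusted p = 1.4e-08). IT, the other seeded variety, averaged -0.39. The gene was called higher in RG at S1, S3 and S4 too, where no TS array was well above background. At S2 only 1 TS array was, so the size of the difference is not exact.

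A pair of neighbouring oxygenase genes on chromosome 9 was also higher in RG. The 2-oxoglutarate-dependent dioxygenase VIT_09s0002g05350 was at -2.65, -2.88 and -2.28 in RG and at -9.62, -8.39 and -5.86 in TS (difference 5.35, standard error 0.77, adjusted p = 4.1e-05). In TS this gene was well above background on 1 array only, so the size is not exact. The 2OG-Fe(II) oxygenase VIT_09s0002g05330 was at -2.04, -2.06 and -0.98 in RG and at -5.90, -6.49 and -5.76 in TS (difference 4.35, standard error 0.49, adjusted p = 1.3e-06). Enzymes of this family oxidise hormones and secondary metabolites, among many substrates. Neither was called at S4, where no RG array and at most 1 TS array was well above background.

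AGLU1, an alpha-glucosidase, was at -1.64, -1.32 and -0.10 in RG and at -7.09, -8.38 and -3.28 in TS, a difference of 5.23 (adjusted p = 0.00013). RD22, a BURP protein known in Arabidopsis as responsive to dehydration and abscisic acid, was at -1.07, -1.05 and -6.34 in RG and at -7.00, -7.24 and -8.21 in TS. Here RG array 3 lay near the TS arrays, and the difference was 4.66 (adjusted p = 0.0024) with and 6.06 without array 3 of both varieties. Only 1 TS array was well above background for RD22, so these sizes are not exact. A mitochondrial 2-oxoglutarate/malate carrier gene (VIT_18s0001g07320) was well above background on all 6 arrays, at 4.83, 5.04 and 2.90 in RG and -0.32, -0.47 and 0.66 in TS. Its difference of 4.30 (adjusted p = 0.026) was not past the threshold when any of arrays 1 and 2 of either variety was left out, with an adjusted p of up to 0.138. It was 0.68 at S1, 1.63 at S3 and -1.91 at S4, none of them past the threshold. The change of the difference was not past the threshold between S2 and S1 (adjusted p = 0.91) or between S2 and S3 (0.40).

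An F-box protein gene (VIT_01s0011g05490, 4.59), an ankyrin gene (VIT_05s0029g01430, 4.52) and phytol kinase 2, a chloroplast enzyme that recovers phytol for tocopherol synthesis (4.12), were higher in RG at all 4 stages. Each had all 3 RG arrays above all 3 TS arrays, with adjusted p between 4.1e-07 and 1.9e-06. In each case only 1 TS array was well above background at S2, so the sizes are not exact.

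**Figure D3:**
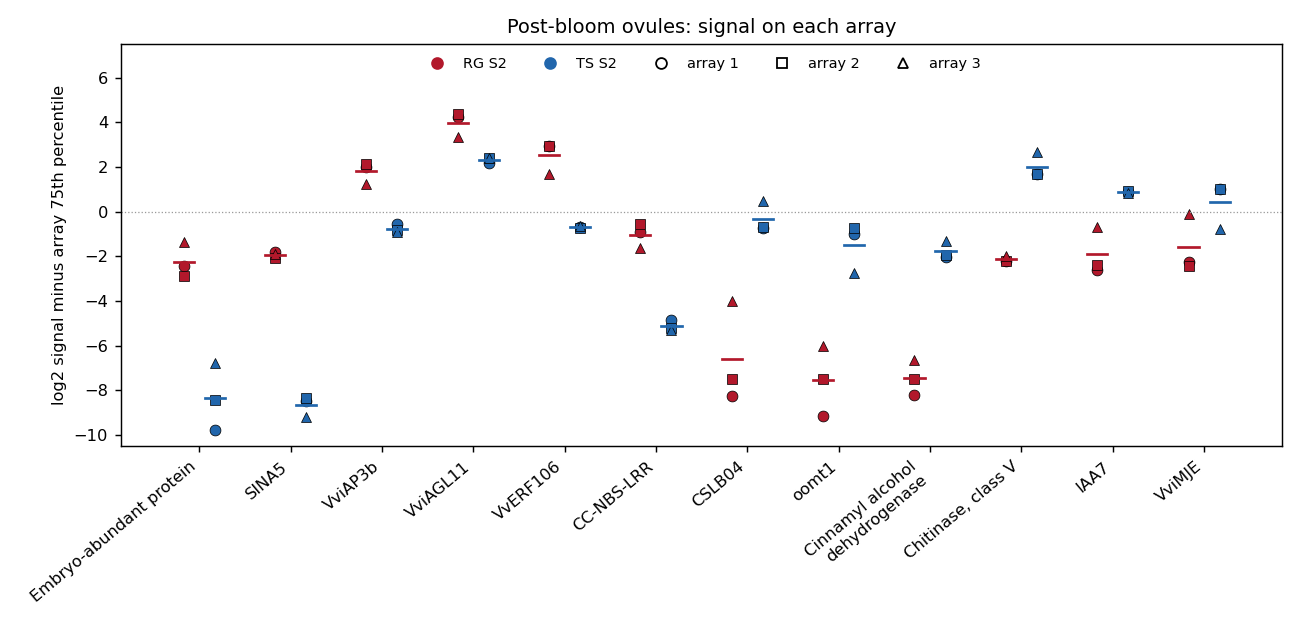
Scaled log2 signal of 12 named genes on each of the 3 RG arrays (red) and the 3 TS arrays (blue) at S2, with the array number as the marker shape and a bar at the group mean. For the first 6 genes all RG points lie above all TS points, for the next 5 all lie below, and for VviMJE array 3 of each variety (triangles) lies the other way round from arrays 1 and 2.

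Among annotated genes lower in RG and well above background on some array of both varieties, the largest differences were those of a pair of cellulose synthase-like genes on chromosome 12. Both are annotated CSLB04, of a family of membrane glycosyltransferases of the cell wall. VIT_12s0059g00990 was at -8.24, -7.49 and -4.00 on the RG arrays, against -0.75, -0.71 and 0.46 on the TS arrays, which gives a difference of -6.24 (standard error 0.94, adjusted p = 7.8e-05). VIT_12s0059g00960 gave -6.07 with the same order of arrays. In both, only RG array 3 was well above background. Both were also called lower in RG at S1, S3 and S4, with at most 1 RG array well above background at S1 and none at S3, so no sizes are given there.

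A peptidase M50 gene (VIT_03s0088g00320) was measured above background on all 6 arrays, at -5.05, -4.97 and -5.82 in RG and 1.32, 1.58 and -0.59 in TS. The difference was -6.05 (standard error 0.37, adjusted p = 4.65e-11), close to the -6.04 of S1, and it shrank to -1.68 at S3. A pair of universal stress protein genes on chromosome 14 showed another course. VIT_14s0060g01320 was at -3.77, -3.94 and -1.78 in RG and 1.30, 1.35 and 1.08 in TS (difference -4.41, adjusted p = 2.7e-05), and VIT_14s0060g01300 differed by -4.36. At S3 their differences were 0.62 and 0.68, not past the threshold, and at S4 -2.06 and -2.30.

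AAP6, an amino acid permease, was at -8.02, -7.22 and -2.45 in RG and -1.19, -1.28 and -0.97 in TS, so RG array 3 lay close to the TS arrays. Its difference of -4.75 (adjusted p = 0.011) lost its call when RG array 1 or 2 was left out, with an adjusted p of up to 0.121. Without array 3 of both varieties it was -6.38 (adjusted p = 0.00086). For AAP6 only 1 RG array was well above background, so these sizes are not exact. An S-receptor protein kinase gene (GSVIVT01014478001) was lower in RG at every stage, with a difference of -4.37 at S2 (adjusted p = 4.2e-06), where 1 of the 3 RG arrays was well above background.

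Some genes gave a signal in 1 variety and none well above background in the other, so only a lower bound of the fold in signal holds. Whether a sequence difference between the varieties under the probe has a part in a dim signal was not tested. The bound sets the mean of the brighter group against the lowest signal that counts as well above background on each array of the dimmer one, or the probe's own signal there where it is higher. A pyruvoyl-dependent arginine decarboxylase, an enzyme type that makes the polyamine precursor agmatine, was at -0.43, -0.86 and -2.76 in RG and not well above background on any TS array, hence at least 64.4-fold higher (adjusted p = 3.5e-07). ABF2 (VvbZIP53), a bZIP factor that binds abscisic acid response elements in Arabidopsis, was at -1.45, -1.67 and -2.36 in RG and at least 44.8-fold higher (adjusted p = 0.00031). SINA5, a ubiquitin ligase of the SINA family, was at -1.79, -2.08 and -1.89 in RG and at least 43.3-fold higher (adjusted p = 1.5e-10). Both ABF2 and SINA5 were called at all 4 stages, and the arginine decarboxylase at S1, S2 and S3 but not at S4, where no array of either variety was well above background for it. The disease resistance gene R protein L6 was at least 24.8-fold higher.

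In the other direction, AHK3, which is named for a cytokinin receptor of Arabidopsis, was not well above background on any RG array, against -0.87, -1.28 and -0.37 in TS, and was at least 59.1-fold lower in RG (adjusted p = 4.2e-07). IT averaged -5.95 for this gene, nearer to RG than to TS. A peroxidase gene (VIT_00s0226g00030) was at least 14.4-fold lower, a disease resistance gene (VIT_11s0118g00160) at least 9.54-fold lower, and VRN1, a DNA-binding protein of the vernalisation response in Arabidopsis, at least 8.67-fold lower. In all, 52 called probes higher in RG and 56 lower were of this kind.

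Of 14 MADS-box and floral identity genes, 3 were higher in RG, none was lower, and the median difference was 0.43. VviAP3b, a gene of the B class that specifies petals and stamens, had a signal of 2.02, 2.14 and 1.23 on the RG arrays, against -0.58, -0.83 and -0.89 on the TS arrays. The RG arrays were all higher, the IT mean of 1.81 was near that of RG, and the difference was 2.56 (standard error 0.54, adjusted p = 0.0033). It was 3.05 at S1 and 2.12 at S3, and reversed to -2.45 at S4. The related VviAP3a, named after its value was seen, differed by 1.15 (adjusted p = 0.37) with overlapping arrays. VviSOC1a, whose Arabidopsis relative promotes flowering, was at -2.84, -2.89 and -3.69 in RG and -4.63, -5.12 and -6.17 in TS (difference 2.16, adjusted p = 0.0078, and up to 0.059 when RG array 1, RG array 2 or TS array 3 was left out).

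VviAGL11 was at 4.24, 4.36 and 3.35 on the RG arrays and 2.17, 2.40 and 2.40 on the TS arrays, without overlap. The difference of 1.66 (standard error 0.42, adjusted p = 0.017) had an adjusted p of up to 0.113 when array 1 or 2 of either variety was left out, which ended the call each time, and 0.708 without scaling. Without array 3 of both varieties it was 2.02 (adjusted p = 0.017). IT, also seeded but measured on other slides and in other sessions, averaged 2.44 and thus lay near TS at this stage. VviAG1, another MADS-box gene, was at 2.17, 2.31 and 1.26 in RG and 1.14, 1.44 and -0.12 in TS (difference 1.09, adjusted p = 0.28), with overlap. VviAGL15a differed by 0.64 (adjusted p = 0.41) and VviMADSD2a by -0.09 (adjusted p = 0.99). At S3, 9 of the 14 genes were higher in RG and 1 lower.

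Among 26 regulators of ovule, integument, endosperm and embryo, 2 were higher in RG and 1 was lower, with a median of 0.29. These 3 are homeobox genes. Wuschel related homeobox 1 was at -1.01, -1.34 and -2.61 in RG and -3.63, -3.22 and -4.45 in TS (difference 2.12, adjusted p = 0.046), KNAT1 at -3.60, -3.55 and -2.92 in RG and -6.93, -8.33 and -3.82 in TS (3.01, adjusted p = 0.0497, just under the threshold), and KNAT2 at -5.64, -5.41 and -4.68 in RG and -3.08, -2.90 and -3.38 in TS (-2.12, adjusted p = 0.034). Leaving out any of 5 of the 6 arrays ended each of these calls, and with array 3 of both varieties left out the adjusted p of Wuschel related homeobox 1 was 0.081. Relatives of these genes keep meristems or pattern lateral organs in Arabidopsis.

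Genes tied to seed structure were not called at S2. Inner no outer was at -2.68, -2.56 and -3.58 in RG and -3.57, -3.31 and -4.13 in TS, with RG array 3 within the range of TS (difference 0.73, adjusted p = 0.57). EDE1, which organises microtubules in the endosperm of Arabidopsis, was at -2.91, -2.92 and -3.17 in RG and -3.67, -3.65 and -3.29 in TS (0.54, adjusted p = 0.71), and EMB1674 differed by 1.13 (adjusted p = 0.28). VvMYC1, a bHLH factor of flavonoid synthesis, differed by 0.04 (adjusted p = 0.98).

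Of 31 auxin genes none was higher and 3 were lower in RG. IAA7, a repressor of auxin response, was at -2.62, -2.39 and -0.69 in RG and 0.87, 0.91 and 0.82 in TS, where the arrays were nearly equal (difference -2.77, standard error 0.40, adjusted p = 5.1e-05). It was lower in RG at every stage, with differences of -5.31 at S1, -2.77 at S3 and -2.41 at S4. A GH3-like gene, of a family that joins auxin to amino acids, was not well above background on any RG array and at least 5.45-fold lower (adjusted p = 0.0024). An auxin-induced beta-glucosidase was at -4.48, -4.14 and -1.91 in RG and -0.92, -1.14 and -1.36 in TS (difference -2.37, adjusted p = 0.034). Its adjusted p was up to 0.234 when 1 array was left out, and only leaving out RG array 3 kept the call. IAA9 (0.38), IAA19 (0.50), ARF5 (0.21) and ARF16 (-0.27) were not called, with adjusted p from 0.47 to 0.87.

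Of 14 gibberellin genes 2 were lower in RG and none was higher. GID1L3, a gibberellin receptor, was at -2.17, -2.08 and -2.16 in RG and 0.25, 0.51 and 0.62 in TS, with little spread within either variety (difference -2.59, standard error 0.49, adjusted p = 0.0013). A gene for a GASA-like peptide, a class induced by gibberellin, was at -4.54, -4.31 and -3.10 in RG and -1.97, -1.94 and -1.23 in TS (difference -2.27, adjusted p = 0.0063, and 0.060 without RG array 1). Its difference was -0.01 at S1 and 1.22 at S3, neither past the threshold. The change of the difference between S2 and S1 was not past the threshold (adjusted p = 0.51). At S4 the gene was called lower in RG (adjusted p = 4.0e-07), with no RG array well above background. The median over the list was 0.53.

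Ethylene genes had the largest share called of any list, with 5 of 17 higher and 1 lower in RG (29.4% and 5.88%) and a median of 0.81. Of the 5, 3 are ethylene response factors that lie near each other on chromosome 16. VvERF106 was at 2.94, 2.94 and 1.70 on the RG arrays, against -0.70, -0.73 and -0.64 on the TS arrays (difference 3.22, standard error 0.73, adjusted p = 0.0067). VvERF108 (3.11) and VvERF107 (2.89) followed the same order of arrays, with IT between both varieties in all 3, at 0.92, 0.73 and 0.22. At S1 and S3 these 3 genes differed by 0.22 to 0.62, and none was called at any other stage. The change of the difference was not past the threshold between S2 and S1 (adjusted p = 0.70 to 0.77) or between S2 and S3 (0.13 to 0.14). The call of VvERF108 was lost without RG array 2 (adjusted p = 0.055), and that of VvERF107 without RG array 2 or TS array 2 (adjusted p of up to 0.114). The member lower in RG, named here after its value was seen, was VvERF075 (VIT_10s0003g00580), with a difference of -4.07 (adjusted p = 0.014). ACC oxidase, the enzyme of the last step of ethylene synthesis, is annotated by its full name, outside this list (VIT_02s0012g00400). It was at -1.55, -1.63 and -1.84 in RG and -6.40, -6.55 and -4.81 in TS (difference 4.25, adjusted p = 0.00041), and was called at all 4 stages.

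Of 38 abscisic acid genes only ABF2 was called, and none of the 6 jasmonate genes was. VviMJE, a methyl jasmonate esterase, shows how array 3 stands apart. It was at -2.26, -2.44 and -0.11 in RG and 1.03, 1.03 and -0.76 in TS, so that RG was lower in array pairs 1 and 2 and higher in pair 3. Its difference of -2.04 (standard error 0.68) had an adjusted p of 0.079, and without array 3 of both varieties it was -3.38 (adjusted p = 0.0039). The neighbouring esterase genes VIT_00s0253g00090 and VIT_00s0253g00110 followed the same pattern, at -1.76 and -1.78 with all arrays and -2.96 and -2.94 without array 3 of both varieties. At S4 VviMJE was higher in RG by 7.07 (adjusted p = 1.2e-08). VviGT3, which attaches glucose to auxin, was at 2.23, 2.06 and 3.29 in RG and 1.84, 1.80 and 3.78 in TS (0.06, adjusted p = 0.99).

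**Figure D4:**
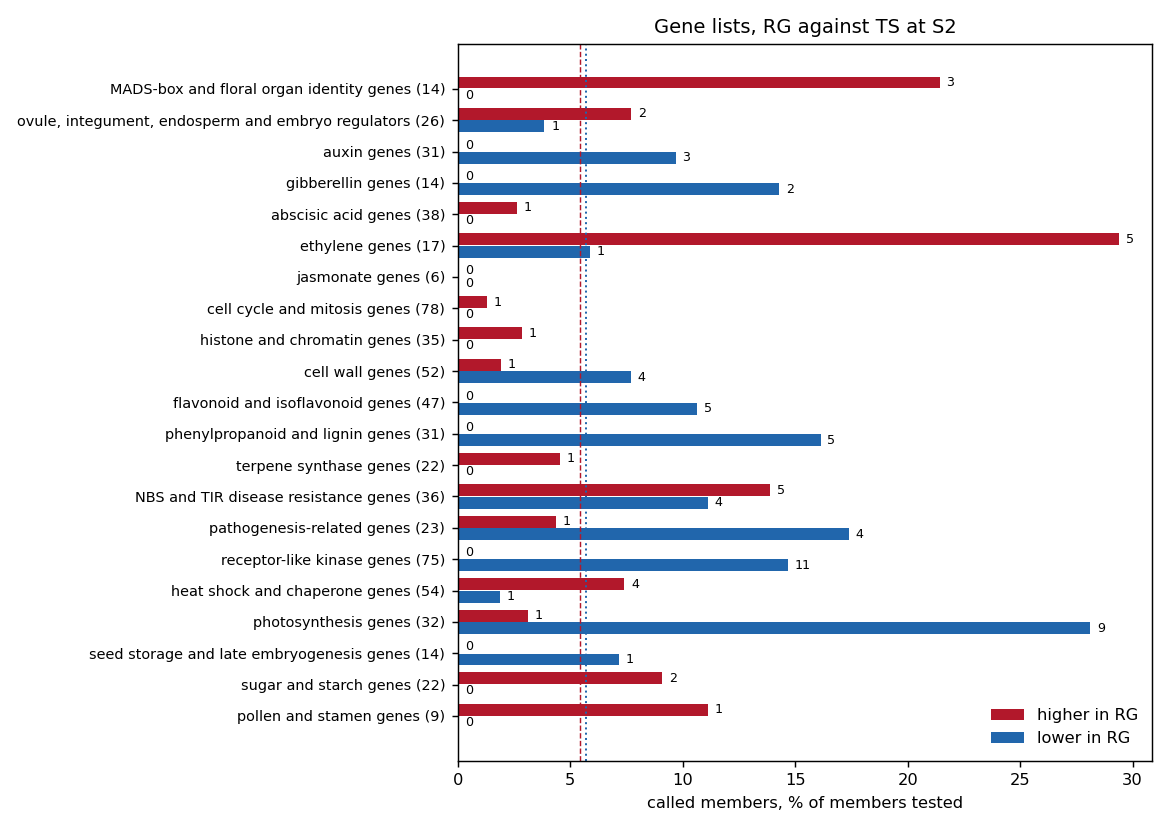
Members called in each gene list at S2, as a percentage of the members tested (in brackets after the list name), for genes higher in RG (red) and lower in RG (blue), with the number called at the end of each bar. The dashed red line is the share of all annotated probes higher in RG, 5.41%, and the dotted blue line the share lower, 5.71%.

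Flavonoid and phenylpropanoid genes were called in 1 direction in the main fit, that is, limma on all 36 arrays without a block. Of 47 flavonoid and isoflavonoid genes 5 were lower and none higher in RG (10.6%, median -0.19). Of 31 phenylpropanoid and lignin genes 5 were lower and none higher (16.1%, median -0.44). The background was 5.71% lower. With scan session as a block, 7 flavonoid genes were lower and 2 higher, and 9 phenylpropanoid genes lower and 1 higher. Without array 3 of both varieties these counts were 8 and 1, and 4 and 1. The replicate block on the 6 arrays gave 2 and 6 lower and none higher. Of the 5 flavonoid calls in the main fit 3 are O-methyltransferases on chromosome 12, annotated oomt1 and oomt2 after the rose enzymes that make orcinol-derived scent. The oomt1 gene VIT_12s0028g02800 was at -9.13, -7.51 and -6.01 in RG and -0.99, -0.75 and -2.74 in TS (difference -6.06, standard error 0.90, adjusted p = 7.6e-05). The second oomt1 gene (-5.03) and oomt2 (-5.01) had the same order, with only RG array 3 well above background in each. None of the 3 was called at S1, S3 or S4, where at most 2 arrays of either variety were well above background. The change of the difference between S2 and S1 was not past the threshold for any of them (adjusted p = 0.26 to 0.76). A UDP-glucuronic acid:anthocyanin glucuronosyltransferase differed by -4.53 (adjusted p = 0.0037, and 0.054 without RG array 1). For that gene too only 1 RG array was well above background, so the size is not exact.

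Cinnamyl alcohol dehydrogenase catalyses the last step toward lignin monomers. The gene VIT_13s0067g00620 was at -8.21, -7.49 and -6.64 on the RG arrays and -2.02, -1.93 and -1.30 on the TS arrays, and IT lay between at -4.05. The difference was -5.70 (standard error 0.37, adjusted p = 5.2e-11), and it was called at all 4 stages. At S2 only 1 RG array was well above background for this gene, so the size is not exact. A second such gene, VIT_15s0107g00210, was at -4.64, -4.85 and -4.27 in RG and -2.70, -2.79 and -1.14 in TS (-2.37, adjusted p = 0.017, and 0.111 without array 3 of both varieties). VvOMT1, a caffeic acid O-methyltransferase, was at -0.45, 0.45 and 1.47 in RG and 2.09, 2.20 and 2.08 in TS (difference -1.63, adjusted p = 0.015), with a wide spread in RG only, and its call was lost without RG array 1, RG array 2 or TS array 2 (adjusted p of up to 0.177). A 4-coumarate-CoA ligase (VIT_06s0061g00450), at the entry of the pathway, was at 0.64, 0.70 and 0.59 in RG and 1.89, 2.00 and 1.72 in TS (-1.23, adjusted p = 0.015, and up to 0.066 with array 1 or 2 of either variety left out).

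VviIFR and the other isoflavone reductases of its cluster on chromosome 3 showed no call at S2. VviIFR was at 4.31, 4.29 and 4.79 in RG and 4.21, 4.19 and 4.31 in TS, with overlap, and differed by 0.22 (standard error 0.36, adjusted p = 0.89). The other 6 members of the cluster differed by 0.09 to 0.29. At S3 all 7 differed by 1.29 to 2.69 and were called higher in RG. At S4 the direction was the opposite, with -1.53 for VviIFR (adjusted p = 0.0025), and 6 of the 7 were called lower in RG by -1.67 to -1.52. The seventh, VIT_03s0038g04710, had -0.54 there (adjusted p = 0.33). A separate isoflavone reductase gene, VIT_03s0088g00060, was at -4.50, -3.93 and -7.11 in RG and not well above background on any TS array. It was not called (adjusted p = 0.071, and 0.017 without array 3 of both varieties).

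Of 52 cell wall genes 4 were lower in RG and 1 was higher. CSLG3, another cellulose synthase-like gene, was at -4.80, -4.41 and -1.94 in RG and -0.49, -0.45 and -0.15 in TS (difference -3.35, standard error 0.66, adjusted p = 0.0019). A pectate lyase, which cuts pectin, was at -4.17, -4.24 and -4.10 in RG and -6.82, -6.83 and -5.23 in TS (2.12, adjusted p = 0.011, and up to 0.074 when TS array 1 or 2 was left out).

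Defence genes were called in both directions. Of 36 NBS and TIR disease resistance genes 5 were higher and 4 lower in RG (13.9% and 11.1%), with a median of -0.47. A pair of CC-NBS-LRR genes on chromosome 14 led the higher ones. VIT_14s0030g00150 was at -0.92, -0.56 and -1.61 in RG and -4.86, -5.21 and -5.29 in TS (difference 4.09, standard error 0.48, adjusted p = 2.9e-06), and the call held under every alternative tried. Its neighbour VIT_14s0030g00140 was not well above background on any TS array and at least 23.3-fold higher. An NBS-LRR gene on chromosome 9 (VIT_09s0096g00010) was at least 15.4-fold higher, and R protein PRF on chromosome 13 at least 19.6-fold higher. RPS4, outside this list and named for an Arabidopsis resistance protein, was at -1.98, -1.84 and -0.14 in RG and -8.16, -8.37 and -2.55 in TS (5.04, adjusted p = 0.0032). For RPS4 only 1 TS array was well above background, so the size is not exact. At S3, 6 of the 36 genes were higher and 20 lower in RG.

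Chitinases, which hydrolyse the chitin of fungal walls, were the pathogenesis-related genes lower in RG, 4 of 23. A class V chitinase on chromosome 11 (VIT_11s0206g00030) was at -2.21, -2.20 and -1.99 in RG and 1.68, 1.68 and 2.68 in TS, with IT at -1.63 near RG. The difference was -4.15 (standard error 0.47, adjusted p = 1.7e-06), and it grew to -9.46 at S3 and was 0.18 at S4. The chitinase-3 genes VIT_11s0149g00380 (-4.03) and VIT_11s0149g00350 (-3.83) shared this course, and the acidic endochitinase CHIB1 differed by -2.63 (adjusted p = 0.014, and 0.140 at most when RG array 1, RG array 2 or TS array 3 was left out). The 1 member higher in RG, named after its value was seen, was a PR10 gene (VIT_05s0077g01650), with 3.80 (adjusted p = 0.018).

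Receptor-like kinases were lower in RG in 11 of 75 cases and higher in none (14.7%, median -0.80). In all 3 pairs of arrays 43 of the 75 were lower in RG and 15 were higher. Of all probes tested, 55.1% kept 1 direction in all 3 pairs, and 31.0% were higher in RG in all 3. Of annotated probes, the background for the lists, 40.4% were higher in RG in all 3 pairs. The share of annotated probes lower in all 3 was not counted. The annotations of 7 of the 11 name the S-receptor, S-locus or ARK3 type, which has the extracellular domain of the S-locus receptors. The share of this type among the 75 was not counted. A receptor ser/thr kinase gene on chromosome 12 (VIT_12s0134g00290) was at -5.17, -5.11 and -5.33 in RG and -2.62, -2.77 and -3.48 in TS (difference -2.25, standard error 0.31, adjusted p = 2.4e-05). ARK3 (VIT_00s0286g00140) was at -3.94, -3.37 and -2.50 in RG and -1.14, -1.30 and -0.61 in TS (-2.25, adjusted p = 0.00044). A gene annotated as the brassinosteroid co-receptor BAK1 was not well above background on any RG array and at least 5.82-fold lower. Each of these 3 genes was lower in RG at all 4 stages. At S3, 35 members were lower and 13 higher.

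Few cell division genes were called at S2. Of 78 cell cycle and mitosis genes 1 was higher in RG and none lower, and of 35 histone and chromatin genes 1 was higher and none lower, against 56 and 2 of the 78 and 24 and 1 of the 35 at S3. Their medians at S2 were 0.41 and 0.49, 66 of 78 and 30 of 35 had a positive difference, and 51 of 78 and 27 of 35 were higher in RG in all 3 pairs of arrays. Of all annotated probes 57.4% had a positive difference and 40.4% were higher in RG in all 3 pairs. Without scaling the medians were -0.14 and -0.05, beside -0.47 for all probes. The genes called were a kinesin-related gene, of the motors that move along microtubules, at -2.15, -2.10 and -2.11 in RG and -4.37, -3.90 and -3.06 in TS (difference 1.65, adjusted p = 0.026, and up to 0.160 with array 1 or 2 of either variety left out), and HDA6, a histone deacetylase, at 0.13, -0.02 and -0.18 in RG and -1.39, -1.07 and -1.49 in TS (1.29, adjusted p = 0.012, and 0.052 without array 3 of both varieties).

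Sugar and starch genes were called in 2 of 22 cases, both higher in RG, against 17 higher and 1 lower at S3. Alpha-amylase isozyme C2, which breaks down starch, was at 0.14, -0.22 and -0.20 in RG and -1.45, -1.98 and -1.46 in TS (difference 1.54, standard error 0.29, adjusted p = 0.0012), and was lower in RG at S4, with -1.62. A gene of the MtN3 family, relatives of the SWEET sugar transporters, was well above background on 2 RG arrays and no TS array and at least 3.45-fold higher (adjusted p = 0.0046, and 0.059 without RG array 2).

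Of 54 heat shock and chaperone genes 4 were higher and 1 was lower in RG. The chaperone BCS1 was at -4.83, -4.89 and -4.89 in RG, not well above background in TS and at least 5.61-fold higher (adjusted p = 0.00019). MTSHP, a mitochondrial small heat shock protein, was at -4.18, -4.43 and -3.44 in RG and -0.86, -0.81 and -1.53 in TS (-2.95, adjusted p = 0.016, and up to 0.091 with array 1 or 2 of either variety left out). Its difference was -5.88 at S1 and 1.62 at S3. Of 14 seed storage and late embryogenesis genes, 1 cupin was lower, at -0.67, -0.82 and -0.54 in RG and 1.20, 1.11 and 0.98 in TS (-1.77, adjusted p = 0.0071). A germacrene D synthase (VvTPS05) was the 1 terpene synthase of 22 called, and was at least 1.67-fold higher in RG (adjusted p = 0.022, and up to 0.217 with array 1 or 2 of either variety left out).

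The largest difference of all was that of an unannotated probe, and it rested on 2 arrays. GSVIVT01007585001 was at -6.58, -5.18 and 5.15 on the RG arrays and 5.73, 5.83 and 5.48 on the TS arrays, so that RG array 3 was as bright as TS. Its difference of -7.88 had an adjusted p of 0.020, and of up to 0.209 with array 1 or 2 of either variety left out. Without array 3 of both varieties it was -11.66 (adjusted p = 0.00024). For this probe only 1 RG array was well above background, so these sizes are not exact. By contrast VIT_15s0046g01560, of unknown function, was at -5.42, -5.83 and -4.75 in RG and 2.83, 3.03 and 1.72 in TS (difference -7.86, standard error 0.71, adjusted p = 3.8e-08).

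The probes called at S2 were followed at the other stages. Those contrasts use other arrays, but the calls of all stages share each probe's variance from the fit to 36 arrays. Of the 430 probes higher in RG at S2, 269 were also called higher at S1, 244 at S3 and 138 at S4, which is 62.6%, 56.7% and 32.1% of the S2 list and 44.4%, 12.1% and 8.80% of the list at each of those stages. None was called lower at S1, 22 were at S3 and 36 at S4. Of the 704 lower in RG, 288 were lower at S1, 515 at S3 and 251 at S4 (40.9%, 73.2% and 35.7% of the S2 list, and 43.0%, 16.0% and 10.9% of the others), while 1, 8 and 79 were called higher. At S3 the background was 9.05% of probes higher and 14.5% lower, or 23.5% in all, at S1 2.73% and 3.02%, or 5.75%, and at S4 7.06% and 10.4%, or 17.4%. A call in the same direction at all 4 stages was found for 91 probes higher and 125 lower in RG, and a call at S2 alone for 90 and 102.

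The change of the difference between stages was tested directly. Between S2 and S1 it was past the threshold for 3 probes (0.0135%), each more negative at S2, and 1 of them is annotated, a bHLH gene (VIT_07s0191g00240) with -1.23 at S2 and 3.19 at S1. Under the replicate block over 36 arrays the count was 13. Between S2 and S3 it was past the threshold for 1735 probes (7.81%), 1308 more positive (5.89%) and 427 more negative (1.92%) at S2. Among probes called at S2, the difference changed by S3 for 71 of the 430 higher in RG and 152 of the 704 lower.

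**Figure D5:**
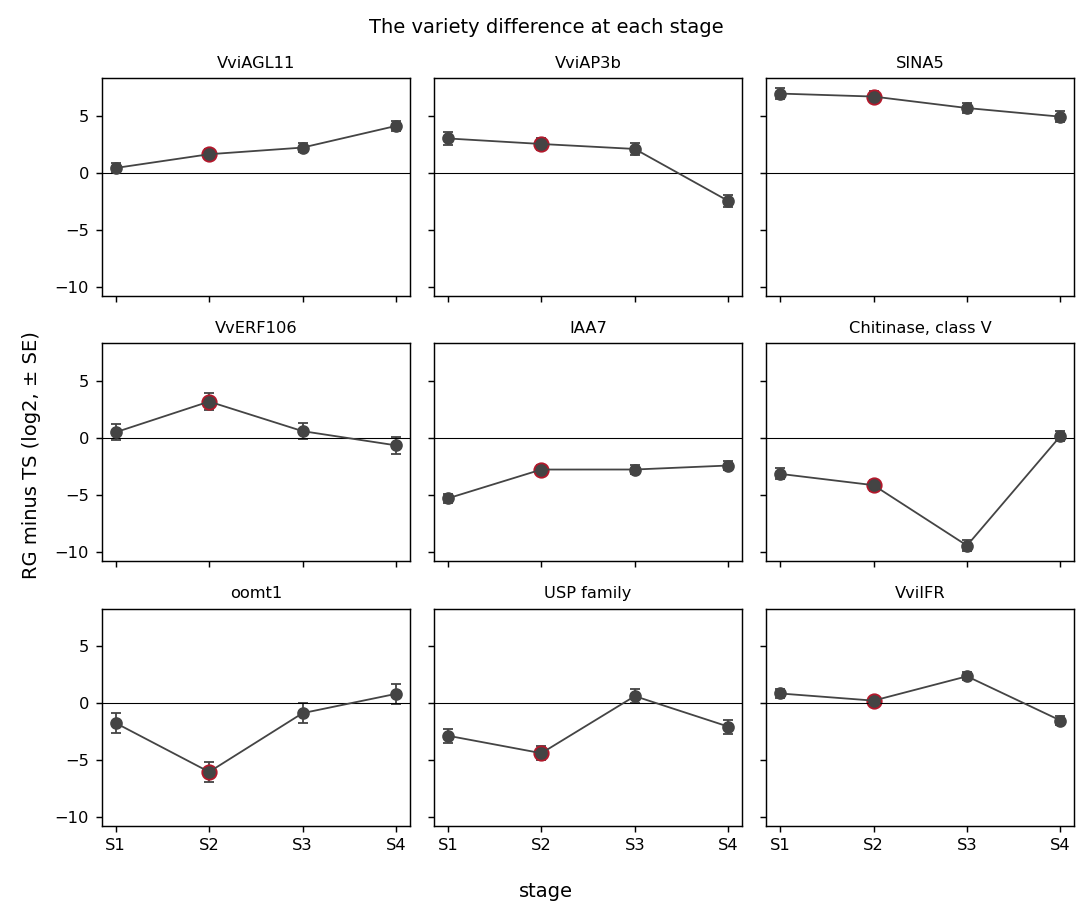
Difference between RG and TS (log2 signal of RG minus TS, vertical axis) at S1, S2, S3 and S4 (horizontal axis) for 9 named genes, with bars of 1 standard error from limma and S2 ringed in red. SINA5 and IAA7 keep 1 direction at all stages, VvERF106 and oomt1 are farthest from 0 at S2, and the chitinase reaches -9.46 at S3. TS at all stages for SINA5, and both varieties at S3 for oomt1, were not well above background, so these points are not exact.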

How the data were processed

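The authors deposited Feature Extraction output for the arrays and a matrix of mean processed signal intensity per probe (22683 probes), background-corrected by the scanner software. In the 6 arrays used here, over 99.9% of matrix values lay within 0.1% of the scanner intensity, so the 75th percentile scaling named in the Methods was applied here. Log2 signals of all 36 arrays were fitted with limma 3.58.1 in R 4.3.3 as 12 group means, with Benjamini-Hochberg adjustment. Python 3.11.15 with pandas 2.3.3, SciPy 1.17.1 and NumPy 2.4.6 made the tables, and matplotlib 3.10.9 the figures. The fit was tested on simulated data with noise drawn independently for each array. Arrays of S2 shared deviations, as given below, so the simulation does not test how the fit handles them. P-values measure the spread between arrays, stated to be biological triplicates. Arrays with the same replicate number at S2 were scanned in 1 session, and their deviations from the group means correlated at 0.709, 0.595 and 0.777, each over 0.1, so the numbers were taken to pair the samples. The fit behind the calls and the permutation test did not use this pairing, and the fits with the replicate block did. Crossing numbers 1 and 2 gave 0.533 and 0.650, so these are hardly told apart, and crossing either with number 3 gave -0.735 to -0.608. Named genes were the 12 annotated genes with the largest called difference in each direction, 4 in each direction not well above background in 1 variety, called members of each list in order of adjusted p, genes the study discusses, and unannotated extremes. Members and lists were chosen with earlier results of these data known. The series matrix has 0 columns of no sample. In all 28 alternatives were tried, among them quantile and normexp (offset 50) values and the methods' t-test. Comparison columns of the study were not used.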

Additional observations from a re-analysis of the deposited data

Results flagged for a closer look

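The difference between RG and TS at S2 was set against the difference at other stages in the same limma fit, and a change past the threshold drew attention to the probes and genes below. A change is the S2 difference minus the other one, on the log2 scale. Between S2 and S1 3 probes passed, and between S2 and S3 1735 did. Among the named genes the change between S2 and S3 was positive, with a difference in RG more positive at S2, for the chitinase-3 genes VIT_11s0149g00380 (5.62) and VIT_11s0149g00350 (5.37), the class V chitinase (5.32) and CHIB1 (3.20). It was also positive for the pyruvoyl-dependent arginine decarboxylase (3.78), R protein L6 (3.23), the cinnamyl alcohol dehydrogenase VIT_15s0107g00210 (3.18), the receptor ser/thr kinase VIT_12s0134g00290 (3.18), the S-receptor protein kinase (2.81), the 2OG-Fe(II) oxygenase (2.57) and the MtN3 gene (2.38). For the arginine decarboxylase, R protein L6 and the MtN3 gene no TS array was well above background at S2 or S3, and for the S-receptor kinase 1 RG array at S2 and none at S3 was, so these 4 sizes are not exact.

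The change was negative for oomt1 (-5.18 for VIT_12s0028g02800), oomt2 (-4.24), the universal stress protein genes (-5.03 for VIT_14s0060g01320 and -5.04 for VIT_14s0060g01300), MTSHP (-4.57), peptidase M50 (-4.37), the GASA-like gene (-3.49) and VviMJE (-3.26). For oomt1 and oomt2 1 RG array was well above background at S2 and none of either variety at S3, so their sizes are not exact. Smaller negative changes were found for LHCB2.1 (-2.08), ARF16 (-1.97), the cinnamyl alcohol dehydrogenase VIT_13s0067g00620 (-1.86), IAA9 (-1.19) and PSBP (-1.12), and for that dehydrogenase 1 RG array was well above background at S2. In the isoflavone reductase cluster the change was -2.60 for isoflavone reductase 5, -2.14 for VviIFR, -2.05 for VIT_03s0038g04690, -1.94 for VIT_03s0038g04620, -1.91 for VIT_03s0038g04680 and -1.78 for VIT_03s0038g04670.

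On the same arrays, 865 probes that are not in the deposited matrix passed the filter on dim probes, and 18 of them (2.08%) were called at S2, 15 higher and 3 lower in RG. No gene name was in hand for them.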

How the results depend on the processing

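The 430 and 704 probes higher and lower in RG at S2 changed with the processing as follows, and the cause was not tested. They became 60 and 414 without scaling, 224 and 288 with normexp background correction, 89 and 103 with only the 6 S2 arrays in the fit, 140 and 182 on slides that held both groups, 740 and 1116 with slide as a random block, 693 and 1135 with scan session as a fixed block and 715 and 1159 with it as a random block. The last 2 alternatives and the removal of array 3 of both varieties were chosen after seeing the data. Array weights gave 2371 and 2357 in a fit that did not converge. The methods' t-test gave 760 higher at an unadjusted p under 0.05 and a fold over 2, and 40 and 54 after Benjamini-Hochberg adjustment. Probes well above background on all 6 arrays included 388 lower. With the replicate block on the 6 arrays 419 were lower. Leaving out 1 array gave 230 to 633 higher and 308 to 1195 lower, with 633 and 1195 without RG array 3, 243 and 308 without RG array 1, 230 and 322 without RG array 2, 279 and 434 without TS array 1 and 276 and 442 without TS array 2. Of 80 called named genes, 46 kept the call with the replicate block on the 6 arrays and 31 in the 6-array fit without it. The call held for 8 under every alternative in which they were tested. Of these, AHK3, R protein L6, SINA5 and VIT_15s0046g01560 were tested in 27 of the 28. With each S2 array left out in turn, 55 kept the call. Without array 3 of both varieties 75 kept it, and VIT_15s0021g00830, GSVIVT01016859001, HDA6, Wuschel related homeobox 1 and the cinnamyl alcohol dehydrogenase VIT_15s0107g00210 lost it.

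The 3 probes whose difference changed between S2 and S1 became 8 with quantile values, 1 without scaling, 0 with normexp, 0 among probes well above background on all 6 S2 arrays, 1 with only RG and TS arrays in the fit, 13 with the replicate block on 36 arrays, 50 with slide as a random and 8 as a fixed block, 0 on shared slides, 650 with array weights, 6 and 22 with scan session as a fixed and a random block, 110 without array 3 of both varieties and 0 to 123 with 1 array left out. The 1735 probes that changed between S2 and S3 became 1109 with quantile values, 393 without scaling, 905 with normexp, 3129 and 2874 with slide as a random and a fixed block, 945 on shared slides, 7101 with array weights, 2740 and 2732 with scan session as a fixed and a random block, and 1164 to 1893 with 1 array left out.

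Among the 104 named genes, those that changed direction were all among the 24 not called. Without scaling these were EDE1 (-0.0096), IAA9 (-0.16), IAA19 (-0.048), ARF5 (-0.33), VvMYC1 (-0.50), VviGT3 (-0.49), VviIFR (-0.32) and the isoflavone reductases VIT_03s0038g04660 (-0.45), VIT_03s0038g04710 (-0.32), VIT_03s0038g04690 (-0.44), VIT_03s0038g04680 (-0.34), VIT_03s0038g04670 (-0.26) and VIT_03s0038g04620 (-0.42). VviMADSD2a was at 0.33 with normexp, 0.017 with array weights, 0.39 without array 3 of both varieties and -0.54 to 0.39 with 1 array left out. ARF5 was at -0.15 with array weights, -0.031 without array 3 of both varieties and -0.051 to 0.36 with 1 array left out, and VvMYC1 at -0.13 to 0.26. VviGT3 was at -0.051 with slide as a fixed block, -0.11 on shared slides and -0.33 to 0.71 with 1 array left out. Without array 3 of both varieties VIT_03s0038g04660 was at -0.048, VIT_03s0038g04690 at -0.085 and VIT_03s0038g04620 at -0.0018. With 1 array left out they were at -0.26 to 0.53, -0.11 to 0.27 and -0.11 to 0.32, and VIT_03s0038g04690 was at -0.013 with array weights.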

Other observations

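Some called genes lay near each other by V1 number. Of 439 annotated called genes whose V1 number places them on a chromosome, 106 stood in 45 runs of called genes of the same direction. Members of a run had V1 numbers at most 100 apart, so other genes can lie between them. The background for such runs was not computed. The longest run held 5 receptor kinase genes on chromosome 12 (VIT_12s0134g00280 to VIT_12s0134g00380), lower in RG by log2 differences of -2.38 to -1.70. A run of 4 genes annotated ZFWD2 on chromosome 10 (VIT_10s0071g00410 to VIT_10s0071g00580) was higher in RG by 1.60 to 1.88. The ethylene response factor and oomt genes described above were further runs, as were the universal stress protein genes with a lipoamide dehydrogenase gene. Other runs held genes of unlike annotation, such as a cellulose synthase-like gene with VvNAC72. No probe sequence was in hand, so whether neighbouring probes share signal was not tested.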
